A study of Rattus norvegicus with 6 samples.

Results

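The genes described here carry glucose into the heart muscle cell, break it down to pyruvate and lactate, store it as glycogen, and pass pyruvate into the mitochondrion and through the pyruvate dehydrogenase complex. They were listed by function, 39 in all, and 36 of them were measured, among 14217 genes with a probe set of their own. A probe set, a group of short probes near the 3′ end of 1 transcript, was taken where it was annotated to exactly 1 listed gene. That gave 54 probe sets, and the one with the highest mean over the 6 arrays stood for its gene. Of the 3 other genes, Gapdh was read only through the array's control probe sets, the Pkm probe set was annotated to several genes, and Dlat had no probe set of its own.

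Hearts of male rats of 2 strains were compared. The Dahl S rat (S control), an inbred strain with salt-sensitive hypertension, was the background of the congenic strain S.LEW(10)x12x2x3x5, which carries a segment of Lewis chromosome 10. The sources used here do not give the extent of that segment. All animals were born on 1 day, weaned at 30 days, housed as 1 congenic with 1 S rat, fed a low-salt diet of 0.3% and killed at 53 days. Each array held heart RNA pooled from 2 animals, so 3 arrays and 6 animals stood for each strain, and no animal was measured alone. Values are log2 expression from Affymetrix Rat Expression Array 230 2.0 chips, where a difference of 1 is a doubling, and every difference is given as congenic minus Dahl S. The tissue was whole heart, in which fewer cells of a type and less RNA per cell cannot be told apart.

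Glucose enters the cardiomyocyte through the transporters GLUT1 and GLUT4, is trapped by hexokinase, committed by phosphofructokinase and split into triose phosphates that end as pyruvate. Pyruvate is either turned to lactate and exchanged through monocarboxylate transporters, or carried into the mitochondrion and decarboxylated by pyruvate dehydrogenase, which kinases switch off and phosphatases switch on. The adult heart burns mainly fatty acids and also takes up lactate, and striated muscle uses its own isoforms of several of these enzymes.

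Both strains had closely similar levels of these genes. No measured member passed an adjusted p under 0.05 in limma's moderated test (0 of 36, with adjusted p from 0.731 to 0.998), while 0.0352% of all genes did (5 of 14217), and 0.0354% of probe sets (11 of 31042). Differences ran from -0.20 for Slc16a1 to 0.13 for Pfkp. The widest 95% intervals reached -0.39 and 0.33, which are 1.31-fold lower and 1.25-fold higher, and the intervals of 30 of the 36 members lay within 1.2-fold in both directions. For 23 members all 6 arrays lay within 0.2 of each other. The median SD within a strain was 0.0518 over the members, against 0.0816 over all genes and 0.0683 over genes above the silent-gene level defined below.

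At an unadjusted p under 0.05, 4 of 36 members were lower in the congenic hearts (11.1%), against 3.55% of all genes and 4.2% of genes above the silent-gene level, and 7.03% of all genes passed that limit in either direction. The 4 were Pdp1, Pgam2, Pdk1 and Slc16a1. No member was higher at that limit, against 3.47% of all genes and 2.48% of those above the silent level. In 9 members (25.0%) every congenic array lay below every Dahl S array, against 8.75% of all genes and 11.7% of genes above the silent level. The reverse held for 3 members, Hk1, Gpi and Pfkp (8.33%), against 5.89% of all genes and 5.08% of those above the silent level. The difference was negative for 25 of 36 members (69.4%), against 53.3% of all genes and 61.2% of those above the silent level, and the median was -0.03 over the members, -0.01 over all genes and -0.02 above the silent level. The 12 members with several probe sets had 18 further ones, of which 11 had the sign of the brightest and none an unadjusted p under 0.05.

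**Figure D1:**
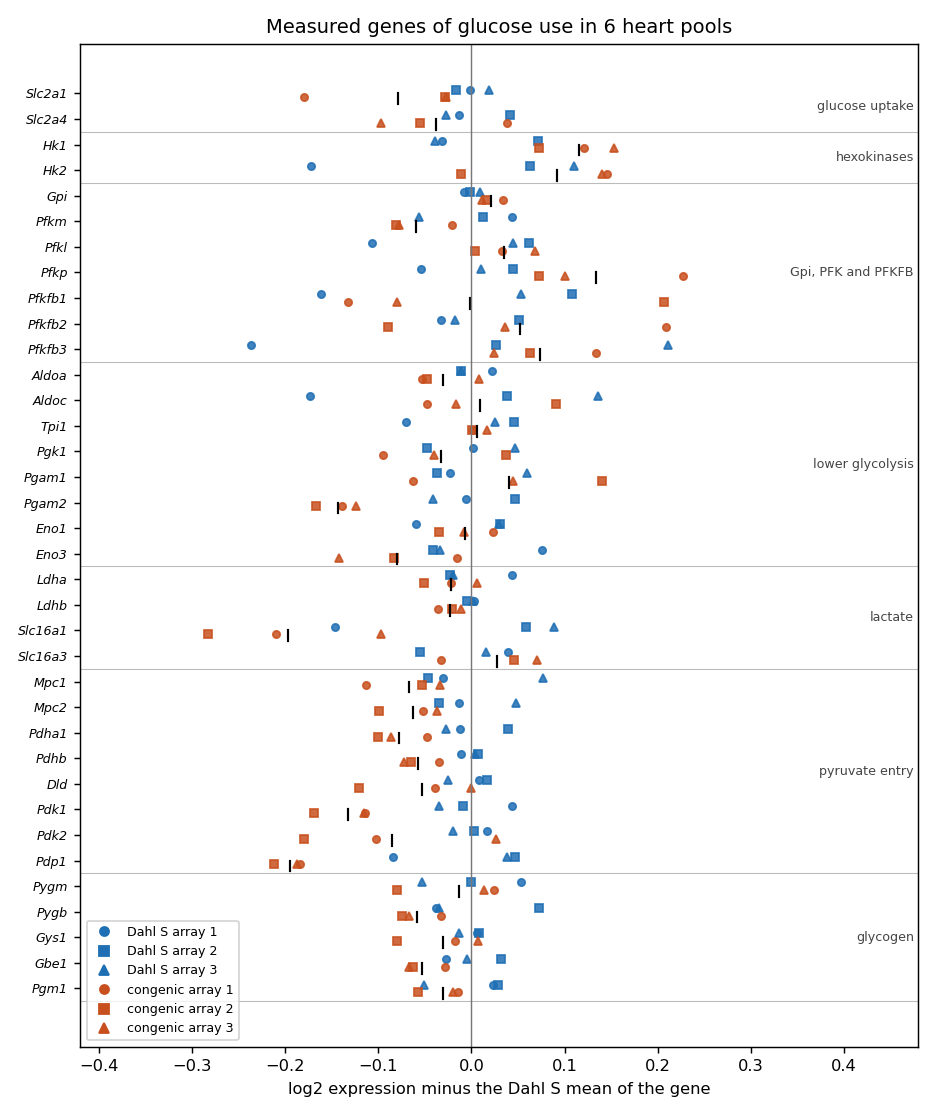
Each point is 1 array for 1 measured gene, as log2 expression minus the gene's Dahl S mean (blue, Dahl S; orange, congenic; the shape gives the array number), and the black bar is the congenic mean. Genes are grouped by role; the black bars lie between -0.20 and 0.13, all 8 bars of the pyruvate-entry group are left of 0 and both hexokinase bars are right of it.

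For 33 of the 36 measured members the RefSeq table of rat assembly GRCr8 held a promoter, from 250 bases before the start site to 50 after it, 300 bases in all. The letters ACGTG, the core to which hypoxia-inducible factors bind, were searched on both strands, where they read CACGT on the other strand. A gene with several promoters was counted where any of them held the letters. That was so for 18 of these 33 members (54.5%), against 20.9% of 27457 genes and 25.1% of 11734 genes on the array. Of 33469 single promoters 19.3% held them. The E-box CACGTG, which holds ACGTG on each strand and was searched separately, was in 5 members (15.2%), against 7.08% of all genes and 9.35% of genes on the array. The letters CTA and TAG with 4 bases between them, 1 form of the core of the MEF2 box of muscle genes, were in Aldoa alone (3.03% of members, 4.14% of all genes, 3.28% of genes on the array). Other forms of that box were not searched, so a promoter without a match, such as that of Pgam2, may still hold one. CATTCC, the MCAT box of muscle genes, was in 5 members (15.2%), among them Pgam2 and Eno3, against 15.0% of all genes and 12.5% of genes on the array. These are matches of letters in 1 window and no measure of binding.

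The promoters of the muscle and the common phosphoglycerate mutase, Pgam2 and Pgam1, are shown because they contrast a muscle isoform with its partner. Those of Pdk1 and Slc16a1 are shown because both genes were among the 4 lower members. The table used here has no entry for Pdp1. The windows are in GRCr8, at chr14:84897825-84898124 on the minus strand for Pgam2, chr1:250672902-250673201 on the plus strand for Pgam1, chr3:77113264-77113563 on the plus strand for Pdk1 and chr2:194812410-194812709 on the plus strand for Slc16a1. Capitals mark ACGTG or CACGT.
Pgam2: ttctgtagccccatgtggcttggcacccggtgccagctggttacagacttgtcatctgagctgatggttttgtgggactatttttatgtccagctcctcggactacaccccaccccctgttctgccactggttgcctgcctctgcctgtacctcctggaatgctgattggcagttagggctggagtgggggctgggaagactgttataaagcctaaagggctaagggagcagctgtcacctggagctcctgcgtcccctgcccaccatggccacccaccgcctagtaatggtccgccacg
Pgam1: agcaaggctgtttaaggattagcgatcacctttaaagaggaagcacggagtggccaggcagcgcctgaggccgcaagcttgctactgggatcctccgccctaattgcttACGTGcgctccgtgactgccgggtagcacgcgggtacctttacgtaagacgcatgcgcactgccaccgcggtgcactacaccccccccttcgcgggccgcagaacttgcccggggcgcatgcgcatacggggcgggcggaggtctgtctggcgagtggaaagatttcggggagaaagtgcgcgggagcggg
Pdk1: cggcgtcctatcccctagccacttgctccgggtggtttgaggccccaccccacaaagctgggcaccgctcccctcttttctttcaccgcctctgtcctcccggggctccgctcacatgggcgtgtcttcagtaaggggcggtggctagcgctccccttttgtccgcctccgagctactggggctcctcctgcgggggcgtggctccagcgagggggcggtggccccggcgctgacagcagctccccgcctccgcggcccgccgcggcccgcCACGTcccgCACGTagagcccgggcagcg
Slc16a1: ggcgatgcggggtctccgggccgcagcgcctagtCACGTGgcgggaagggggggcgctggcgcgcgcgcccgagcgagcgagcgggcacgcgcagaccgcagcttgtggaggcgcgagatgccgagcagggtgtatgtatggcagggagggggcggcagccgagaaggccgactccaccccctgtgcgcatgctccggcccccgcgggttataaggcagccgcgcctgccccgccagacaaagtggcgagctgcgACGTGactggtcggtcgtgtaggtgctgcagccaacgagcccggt
Pgam2 had no match and Pgam1 had 1. Pdk1 had 2 matches, both after the start site. Slc16a1 had 3, of which 2 overlap in an E-box far upstream and 1 lies just after the start site.

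RMA values carry no call of presence, so the level of genes that a heart should not express was used as a floor. Over 43 such measured genes of retina, testis, pancreas, kidney, liver and other organs the 95th percentile was 6.77, and 34 of the 36 members and 63.9% of all genes lay above it. The 2 members below it were Pfkfb1 at a mean of 6.01, a form of the enzyme that sets fructose 2,6-bisphosphate, and Slc16a3 at 6.31, the lactate exporter MCT4 of glycolytic cells. Aldoc, the brain aldolase, lay just above it at 6.80. All 12 measured isoforms listed as those of heart or muscle were above the floor, as were 11 of the 13 partners with which they were paired. The list includes Slc16a1 and Pdk2, and whether these are particular to muscle was not tested. Nor was it tested whether partners such as Pfkfb1 are particular to other tissues. The probe sets of different genes do not report on 1 scale, so the use of isoforms is described by each isoform's own level and by how the ratio within a pair moved between strains. The tissue label was checked on markers: all 11 measured cardiomyocyte markers were above the floor, and of 11 skeletal-muscle markers 8 were not, including Myh4, Tnnt3 and Actn3. The other 3 skeletal-muscle markers, Acta1, Myh1 and Myl1, were above it.

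Glucose uptake was read through Slc2a4, the insulin-regulated transporter GLUT4 of muscle and fat, and Slc2a1, the constitutive GLUT1. Slc2a4 read 11.67, 11.72 and 11.66 on the Dahl S arrays and 11.72, 11.63 and 11.59 on the congenic arrays, and the strains overlapped (-0.04, 95% interval -0.18 to 0.10). Its other probe set differed by 0.04. Slc2a1 read 8.40, 8.39 and 8.42 in Dahl S and 8.23, 8.38 and 8.38 in congenic hearts. The congenic arrays were all the lower, but 1 of them made most of the difference: it was -0.08 (-0.22 to 0.07), and -0.03 without congenic array 1.

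The hexokinases trap glucose as glucose 6-phosphate, and both were nominally higher in the congenic hearts without passing the test. Hk1, the common form, read 10.43, 10.53 and 10.42 in Dahl S and 10.58, 10.53 and 10.61 in congenic hearts. The congenic arrays lay above the Dahl S arrays by the narrowest of margins, with array 2 of both strains at 10.53, and the difference was 0.12 (SE 0.06, 95% interval -0.02 to 0.25, limma unadjusted p = 0.0868, adjusted p = 0.787). The other Hk1 probe set, at a mean of 6.61 under the floor, differed by 0.02, and the strains overlapped there. Affymetrix adds 3 further probe sets along hexokinase 1 as controls. They differed by 0.07 at the 3′ end, 0.17 in the middle, where the strains did not overlap (exact permutation p = 0.10, the smallest that 3 against 3 arrays allow), and 0.13 at the 5′ end, where the level of 5.19 in Dahl S was under the floor.

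Hk2, the insulin-responsive hexokinase of muscle, read 7.55, 7.79 and 7.84 in Dahl S and 7.87, 7.71 and 7.87 in congenic hearts, a difference of 0.09 (-0.11 to 0.30). Dahl S array 1 was the lowest, and without it the difference was 0.0050.

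Gpi, which turns glucose 6-phosphate into fructose 6-phosphate, was among the tightest genes, at 12.18 ± 0.01 in Dahl S and 12.20 ± 0.01 in congenic hearts (SD, n = 3 arrays). The strains did not overlap, and the difference was 0.02 (-0.10 to 0.14).

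Phosphofructokinase makes the committed step and has a muscle (Pfkm), a liver (Pfkl) and a platelet (Pfkp) subunit. Pfkm read 12.20, 12.17 and 12.10 in Dahl S and 12.13, 12.07 and 12.07 in congenic hearts (-0.06, 95% interval -0.19 to 0.07). On this probe set the congenic arrays were the lower ones on balance, with 1 congenic value inside the Dahl S range. Its 2 other probe sets differed by -0.08, with all congenic arrays lower, and by -0.09, with a mean of 6.63 under the floor. Pfkl read 8.57, 8.74 and 8.72 in Dahl S and 8.71, 8.68 and 8.75 in congenic hearts, and its difference of 0.04 became -0.02 without Dahl S array 1. Pfkp read 9.60, 9.70 and 9.66 in Dahl S and 9.88, 9.73 and 9.75 in congenic hearts. It had the largest positive difference among the members, 0.13 (SE 0.06, -0.02 to 0.28, limma unadjusted p = 0.0723, adjusted p = 0.773), all congenic arrays were the higher, and it was 0.09 without congenic array 1.

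The bifunctional enzymes that make and remove fructose 2,6-bisphosphate, the activator of phosphofructokinase, varied more between arrays than most members. Pfkfb2, the heart form, read 7.93, 8.01 and 7.94 in Dahl S and 8.17, 7.87 and 8.0 in congenic hearts (0.05, -0.14 to 0.24). Its other probe sets, all under the floor, differed by 0.19, -0.12 and 0.01. Pfkfb3, the inducible form, read 7.53, 7.79 and 7.97 in Dahl S and 7.90, 7.83 and 7.79 in congenic hearts (0.07, -0.18 to 0.33). Its other probe sets differed by -0.04 and, under the floor, by 0.0047. Neither direction was stable: the difference was -0.03 for Pfkfb2 without congenic array 1 and -0.05 for Pfkfb3 without Dahl S array 1. Pfkfb1, under the floor, read 5.85, 6.12 and 6.07 in Dahl S and 5.88, 6.22 and 5.93 in congenic hearts.

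In lower glycolysis 8 members were measured, 3 with a positive and 5 with a negative difference and a median of -0.02. Aldoa, the muscle aldolase, read 14.31, 14.28 and 14.28 in Dahl S and 14.24, 14.24 and 14.30 in congenic hearts (-0.03, -0.15 to 0.09). Its partner Aldoc read 6.62, 6.83 and 6.93 in Dahl S and 6.75, 6.89 and 6.78 in congenic hearts (0.01, -0.20 to 0.21). Tpi1, triose phosphate isomerase, differed by 0.01 (13.01 ± 0.06 against 13.02 ± 0.01) and Pgk1, phosphoglycerate kinase, by -0.03 (13.24 ± 0.05 against 13.20 ± 0.07). Gapdh, the dehydrogenase of the pathway and a common reference gene, differed by 0.0050 at its 3′ control set, -0.0084 in the middle and -0.0018 at the 5′ end. Its 5′ set stood 0.52 below its 3′ set in both strains (-0.52 ± 0.03 and -0.52 ± 0.01), so this measure of how much of the transcript was copied was alike in the strains.

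Pgam2, the muscle subunit of phosphoglycerate mutase, read 12.80, 12.85 and 12.77 in Dahl S and 12.67, 12.64 and 12.68 in congenic hearts. All congenic arrays were lower, by -0.14 (SE 0.05, 95% interval -0.27 to -0.02, limma unadjusted p = 0.0303, adjusted p = 0.736). Its partner Pgam1, the common subunit, read 11.49, 11.47 and 11.57 in Dahl S and 11.45, 11.65 and 11.56 in congenic hearts (0.04, -0.12 to 0.20). The sign of Pgam1 turned to -0.01 without congenic array 2. Eno3, the muscle enolase, read 12.27, 12.15 and 12.16 in Dahl S and 12.18, 12.11 and 12.05 in congenic hearts (-0.08, -0.23 to 0.07), and the strains overlapped. Eno1, the common enolase, read 12.34, 12.43 and 12.43 in Dahl S and 12.42, 12.36 and 12.39 in congenic hearts (-0.01, -0.14 to 0.12).

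Lactate dehydrogenase joins pyruvate and lactate, with Ldhb the subunit of the heart and Ldha that of fast muscle. Ldhb was the least variable member: it read 14.27, 14.26 and 14.27 in Dahl S and 14.23, 14.24 and 14.25 in congenic hearts. The congenic arrays lay below, by only -0.02 (-0.14 to 0.09). Ldha read 13.56, 13.50 and 13.50 in Dahl S and 13.50, 13.47 and 13.53 in congenic hearts (-0.02, -0.15 to 0.10).

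Slc16a1, the lactate transporter MCT1 through which heart muscle takes up lactate, had the most negative difference. It read 11.61, 11.81 and 11.84 in Dahl S and 11.54, 11.47 and 11.66 in congenic hearts, a difference of -0.20 (SE 0.08, 95% interval -0.39 to -0.0041, limma unadjusted p = 0.0464, adjusted p = 0.744). Dahl S array 1 lay below congenic array 3, so the strains overlapped, and the difference was -0.27 without that array and -0.15 when the third Dahl S array was left out. Its other probe set, at 4.80 far below the floor, differed by -0.0053. Slc16a3 read 6.34, 6.24 and 6.31 in Dahl S and 6.27, 6.34 and 6.37 in congenic hearts (0.03, -0.11 to 0.16).

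All 8 measured members of pyruvate entry had a negative difference, from -0.19 to -0.05 with a median of -0.07. Of these, 2, Pdp1 and Pdk1, had an unadjusted p under 0.05. Of all genes above the silent level 61.2% had a negative difference and 4.2% were lower at that limit. Pdp1, the phosphatase that reactivates pyruvate dehydrogenase, read 9.84, 9.97 and 9.96 in Dahl S and 9.73, 9.71 and 9.73 in congenic hearts. The strains did not overlap: the difference was -0.19 (SE 0.06, 95% interval -0.33 to -0.06, limma unadjusted p = 0.0115, adjusted p = 0.731), and it lay between -0.24 and -0.17 when each array was left out in turn. Pdk1, a kinase that inactivates the complex and so works against Pdp1, read 10.69, 10.64 and 10.62 in Dahl S and 10.54, 10.48 and 10.54 in congenic hearts. Again the strains did not overlap (-0.13, SE 0.05, 95% interval -0.26 to -0.01, limma unadjusted p = 0.0417, adjusted p = 0.743), and the other Pdk1 probe set differed by -0.07 without overlap. Pdk2, the other measured kinase on the list, read 11.97, 11.96 and 11.94 in Dahl S and 11.85, 11.78 and 11.98 in congenic hearts (-0.09, -0.24 to 0.07). Its highest array was congenic: the difference was -0.14 without that array, congenic array 3, and -0.04 without congenic array 2. Its other probe set differed by 0.01. Of the kinases outside the list, Pdk4 differed by -0.18 (95% interval -0.47 to 0.11), with overlap. Pdk3, under the floor at a mean of 6.67, differed by 0.16.

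The subunits of the complex and the carrier that feeds it differed less. Pdha1 and Pdhb, the subunits of the decarboxylase E1, differed by -0.08 (13.11 ± 0.04 against 13.04 ± 0.03) and -0.06 (12.21 ± 0.01 against 12.15 ± 0.02), in both without overlap. Every congenic array lay below every Dahl S array in 11.7% of genes above the silent level. The other Pdha1 probe set, at a mean of 11.44, differed by -0.04, and the strains overlapped there. Dld, the E3 subunit that other dehydrogenases share, differed by -0.05 (11.80 ± 0.02 against 11.74 ± 0.06). Mpc1 and Mpc2, the subunits of the mitochondrial pyruvate carrier, differed by -0.07 (12.99 ± 0.07 against 12.92 ± 0.04) and -0.06 (12.31 ± 0.04 against 12.25 ± 0.03), the second without overlap. None of these 5 had an unadjusted p under 0.05. Markers of cell types were read beside them. Of the cardiomyocyte markers 9 of 11 also had a negative difference, with a median of -0.02, and 8 of 9 adipocyte markers did, with a median of -0.11. The difference was positive for all 9 fibroblast markers (median 0.14), all 6 erythroid (0.29), 7 of 9 macrophage (0.15) and 7 of 8 smooth-muscle and pericyte markers (0.12). It was mixed for endothelial (5 of 8 positive, median 0.02), skeletal-muscle (6 of 11, 0.03) and nerve markers (5 of 7, 0.01). The summed linear level of the cardiomyocyte markers was 245265 to 250549 in Dahl S and 242795 to 246303 in congenic arrays, and that of the fibroblast markers was 47773 to 52102 and 52688 to 60036. For erythroid markers it was 23627 to 28102 and 28820 to 29605, for macrophage markers 3971 to 5446 and 4836 to 4920, and for smooth-muscle and pericyte markers 5839 to 7409 and 6600 to 7531. Of these 3 lists, Adgre1, Cd163, Epb42 and Hemgn were at the floor. The part of any of these cells in the lower values was not tested.

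**Figure D2:**
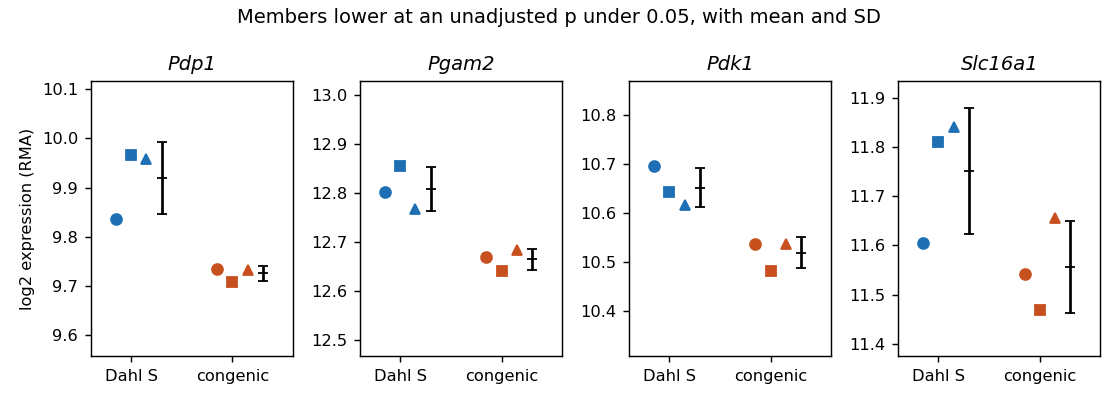
Log2 expression on each array (points; circle, square and triangle for arrays 1, 2 and 3) with mean and SD (bars, n = 3 arrays) of the 4 genes with an unadjusted p under 0.05; the vertical axes do not start at 0 and differ between panels. The strains do not overlap for Pdp1, Pgam2 and Pdk1, and Dahl S array 1 lies inside the congenic range for Slc16a1.

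The 5 measured glycogen genes all had small negative differences, from -0.06 to -0.01, where 61.2% of genes above the silent level had a negative one. Pygm, the muscle phosphorylase that releases glucose from glycogen, read 12.86, 12.81 and 12.75 in Dahl S and 12.83, 12.73 and 12.82 in congenic hearts (-0.01, -0.15 to 0.12), and its 2 other probe sets differed by 0.02 and 0.03. Its partner Pygb, the brain form that the heart also makes, read 11.84, 11.95 and 11.84 in Dahl S and 11.84, 11.80 and 11.81 in congenic hearts (-0.06, -0.19 to 0.07). Gys1, the muscle glycogen synthase, read 10.40, 10.40 and 10.38 in Dahl S and 10.37, 10.31 and 10.40 in congenic hearts (-0.03, -0.15 to 0.09). The strains overlapped for these 3 genes. Gbe1, the branching enzyme, differed by -0.05 (11.36 ± 0.03 against 11.30 ± 0.02, without overlap), and Pgm1, which joins glycogen to glycolysis, by -0.03 (10.78 ± 0.04 against 10.75 ± 0.02).

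The ratio of an isoform listed as that of heart or muscle to its partner was compared between strains for 13 pairs within each array. It was nominally lower in the congenic hearts for 9 pairs and higher for 4, and the strains did not overlap for 1 of the 13. Single arrays moved that tally, to 6 lower and 7 higher without congenic array 2 and to 7 and 6 without Dahl S array 1. Over all alternatives the sign turned at least once for 6 ratios, Slc2a4/Slc2a1, Hk2/Hk1, Pfkfb2/Pfkfb1, Pfkfb2/Pfkfb3, Aldoa/Aldoc and Ldhb/Ldha, and held for the other 7. The pair without overlap was Pfkm over Pfkp, with a change of the log2 ratio of -0.19 (SE 0.06, exact permutation p = 0.10, two-sided). Over the 13 pairs every adjusted p was 1.0, and 3 arrays against 3 cannot give a p below 0.10. For Pgam2 over Pgam1 the change was -0.18 (SE 0.09, exact permutation p = 0.20) and for Slc16a1 over Slc16a3 it was -0.22 (SE 0.11, exact permutation p = 0.30), where the partner was under the floor. The ratio of Ldhb to Ldha, often read as the oxidative against the glycolytic form, was the most even, with a change of -0.00039 (SE 0.03). The other changes were 0.04 for Slc2a4 over Slc2a1, -0.02 for Hk2 over Hk1, -0.10 for Pfkm over Pfkl, 0.05 for Pfkfb2 over Pfkfb1 and -0.02 for Pfkfb2 over Pfkfb3. They were -0.04 for Aldoa over Aldoc, -0.07 for Eno3 over Eno1, 0.04 for Pygm over Pygb and 0.05 for Pdk2 over Pdk1, all with overlapping arrays.

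**Figure D3:**
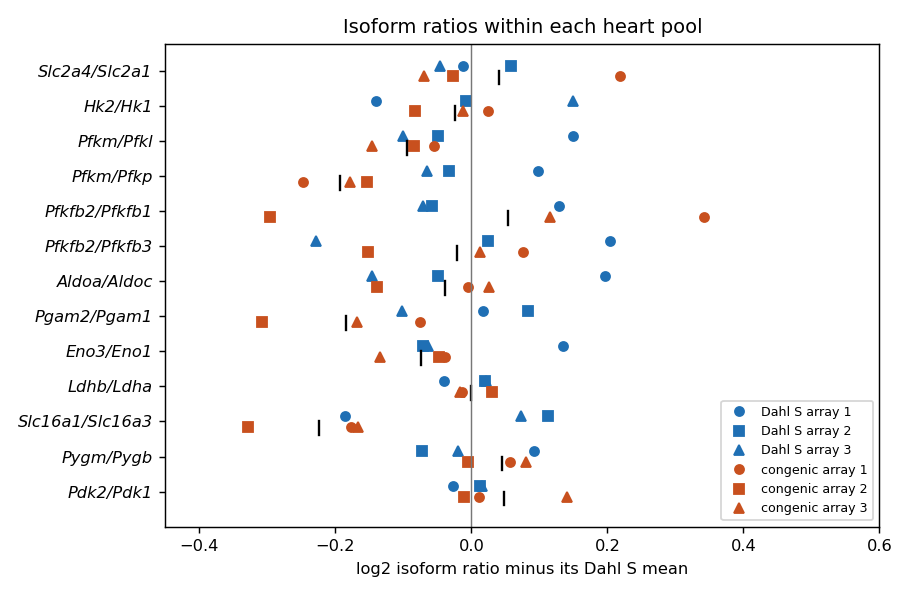
Each point is the log2 ratio of 2 isoforms on 1 array minus the Dahl S mean of that ratio (blue, Dahl S; orange, congenic; the shape gives the array number), and the black bar is the congenic mean. Of the 13 ratios only Pfkm/Pfkp separates the strains, with its black bar at -0.19.

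The congenic segment lies on chromosome 10, as do 5 measured members, Slc2a4, Aldoc, Eno3, Slc16a3 and Pdk2. Their differences lay between -0.09 and 0.03, around a median of -0.04, and none had an unadjusted p under 0.05. The sources used here do not say whether they lie inside it.

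The arrays were alike as a whole, with Pearson correlations over all probe sets from 0.993 to 0.998, but 2 of them, Dahl S array 3 and congenic array 2, stood apart in 2 respects. Their hybridization-control probe sets read 11.54 and 11.55, against 10.67 to 10.83 on the other 4. They were also the highest ones for 7 of 9 adipocyte markers, not for Lep and Lpl, and for 1 airway gene. Ucp1, the uncoupling protein of brown fat, read 8.83, 10.09 and 11.44 in Dahl S and 9.45, 10.92 and 9.66 in congenic arrays. Scgb1a1, the secretoglobin of airway club cells, read 5.21, 5.41 and 9.14 in Dahl S and 5.02, 10.16 and 5.03 in congenic arrays. Sftpc, a surfactant protein of the lung, was high on congenic array 2 alone, at 7.21 against 4.84 to 5.20. The summed level of the adipocyte markers ran from 24268 to 30554 in Dahl S and from 23706 to 28154 in congenic arrays, with Lep alone at the floor.

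These 2 arrays were the highest ones for Aldoc, Pgk1 and Pgam1 (3 of 36 members, 8.33%, against 8.95% of all genes) and the lowest for Pygm and Pgm1 (5.56% against 6.76%). Between these 2 arrays alone the difference was -0.37 for Slc16a1 and -0.25 for Pdp1. Over the other 4 it was -0.11 and -0.17. For Pgam2 the values were -0.13 and -0.15, and for Pdk1 both were -0.13. With only those 4 arrays no member had an unadjusted p under 0.05. Among the members whose direction turned were Hk2, from 0.20 over the 4 arrays to -0.12 between the 2, and Pfkfb3, from 0.18 to -0.15.

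**Figure D4:**
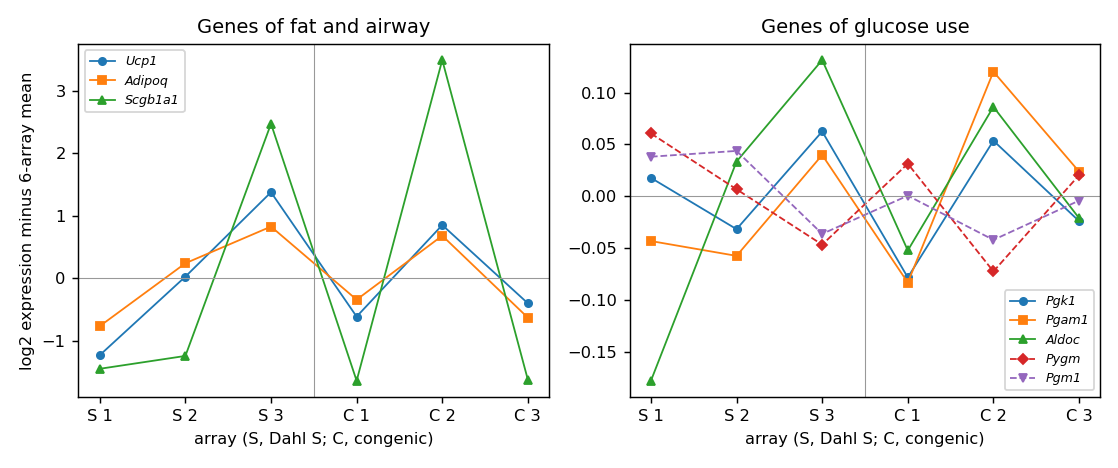
Log2 expression minus the mean of the 6 arrays, for 3 genes of fat and airway (left) and 5 genes of glucose use (right, on a much finer scale); the lines join the values of 1 gene, and the arrays of a strain have no order. Dahl S array 3 and congenic array 2 are the highest for the 3 genes on the left and for Aldoc, Pgk1 and Pgam1 on the right, and the lowest for Pygm and Pgm1.

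Genes around the pathway were counted in 4 further lists. Of 25 relatives of the members, 19 were measured. At an unadjusted p under 0.05, 1 of these was higher and 1 was lower (10.5%, against 7.03% of all genes in either direction). None passed the adjusted test. The higher one was Emb, embigin, a membrane partner of monocarboxylate transporters. It read 7.65, 7.81 and 7.83 in Dahl S and 8.17, 8.07 and 8.10 in congenic hearts, all higher (0.35, 95% interval 0.20 to 0.51, limma unadjusted p = 9.58e-04, adjusted p = 0.523). Bsg, basigin, the main partner of MCT1, differed by -0.01. The lower one, Fbp2, the muscle fructose bisphosphatase, had its levels under the floor (5.79, 6.13 and 6.08 against 5.65, 5.86 and 5.61, a difference of -0.29).

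Glycogen handling (20 of 25 measured), the side paths of glucose (15 of 18) and regulators of glucose use (36 of 36) had no gene with an unadjusted p under 0.05 in either direction. The 2 with the smallest p were Gaa, the lysosomal glucosidase (-0.12), and Ppp1r3d, a glycogen-targeting subunit of protein phosphatase 1 (-0.09), among the glycogen genes. Among the side paths they were Pgm3 (-0.19) and Gfpt2 (0.13), both of the hexosamine path, with Pgm3 under the floor at a mean of 5.77. Among the regulators they were Pik3r1, the regulatory subunit of phosphoinositide 3-kinase (0.13), under the floor at 6.16, and Klf15, a transcription factor that raises Slc2a4 in muscle (-0.15). Of the 36 regulators 29 had a negative difference (80.6%, against 53.3% of all genes and 61.2% of those above the silent level), with a median of -0.04.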

How the data were processed

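Heart RNA of 6 pools, 3 per strain, was measured on 6 arrays. Per the submitters' processing notes the authors used RMA (version not given in the sources used here), which corrects background, normalizes between arrays and summarises each probe set, so the deposited log2 values were used as they stood. Testing in the study used Benjamini-Hochberg adjustment in R 2.8.1, per the series' design text.

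Of 31099 probe sets, 57 were Affymetrix controls, and the other 31042 entered the test. GEO's platform annotation, updated through the RefSeq table of GRCr8, gave 20826 probe sets 1 gene, 436 several and 9780 none. Congenic was tested against Dahl S in R 4.3.3 by limma 3.58.1, with lmFit and eBayes and no term beside strain, adjusted over all 31042 probe sets, with a call at an adjusted p under 0.05 and 95% intervals; the script was tested on simulated data. Background shares use the brightest probe set of each of 14217 genes. Isoform ratios and control probe sets were compared by exact permutation over arrays. Promoters are RefSeq's for GRCr8. Plots used matplotlib 3.10.9 in Python 3.11.15.

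The members and all gene lists were chosen with earlier results of these data known. By rule, every member is named. All arrays are given for the listed heart or muscle isoforms and their partners, and for members with an unadjusted p under 0.05. They are also given for the 3 highest and 3 lowest differences. Of other lists the genes with an unadjusted p under 0.05 or else the 2 of smallest p are named. Bsg, Pdk3, Pdk4, the fat and airway genes and the genes among the last observations were named after their values were seen. Arrays of the 2 strains share replicate numbers, but same-numbered arrays did not deviate together (correlations -0.07, -0.06 and -0.18), so they were not treated as pairs. The number of arrays limits the precision. Each array is a separate pool of animals. limma's p-values and intervals rest on the spread of a probe set between pools, moderated by that of all probe sets. For a tight gene this matters: Ldhb had a limma unadjusted p of 0.66, and 0.043 with its ordinary variance.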

Additional observations from a re-analysis of the deposited data

How the results depend on the processing

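The member counts, their median, each member's difference and the isoform ratios were recomputed under 14 alternatives, and the calls over all probe sets under 13 of them, without the mean of a gene's probe sets. Pfkfb1, Slc16a3 and their ratios had 13. Values of other lists, markers, control sets and promoters were not recomputed. In no alternative did a member pass the adjusted test (lowest limma adjusted p 0.408, with dim probe sets left out, where Pfkfb1 and Slc16a3 were not tested). Calls over all probe sets numbered 11, and 0 with each probe set's ordinary variance (2074 at an unadjusted p under 0.05), 5 with the replicate block, 5 with hybridization-control level as a block, 2 with only the 4 arrays of low level, and 5 to 6 when 1 array was left out. Members lower at an unadjusted p under 0.05 numbered 4, and 6 with ordinary variance (Ldhb, Pdha1 and Pdhb joined, Slc16a1 left), 2 after quantile normalization, 2 with the replicate block, 0 with only the 4 arrays (1612 probe sets at that limit), and 1 to 3 when 1 array was left out, with 1 each without Dahl S array 2, congenic array 1 or congenic array 2 and 2 without congenic array 3. Members higher numbered 0, and 2 after quantile normalization, Hk1 and Pfkp, and 0 without any 1 array. The unadjusted p was under 0.05 in 13 of 14 alternatives for Pdp1, 7 for Pgam2, 6 for Pdk1 and 5 for Slc16a1. The sign of 26 of 36 members held in every alternative. Leaving out Dahl S array 1 turned the sign of 5 members, and leaving out congenic array 2 that of 4. The median over the members stayed between -0.04 and -0.02. Without the lung genes, an alternative added after seeing the data, the silent-gene level was 6.79 in place of 6.77.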

Other observations

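Dahl S array 1 stood apart from the other 5 arrays for several genes that act around glucose use, which were picked after their values were seen. Foxo1, a transcription factor of the fasted state, read 8.56 on it and 7.48 to 7.84 on the others. Pdk4, the fasting-induced pyruvate dehydrogenase kinase, read 11.73 against 11.18 to 11.51. Prkaa2, the muscle catalytic subunit of AMP-activated kinase, read 10.44 against 9.68 to 10.11. Igf1r, the receptor of insulin-like growth factor, read 8.23 against 7.80 to 7.92. Other genes of the same list did not single out this array. Irs2 read 7.92 on it and 8.04 on Dahl S array 3, and Klf15 read 9.51 and, on Dahl S array 2, 9.66. Txnip read 12.37 on it and 12.61 on Dahl S array 3. The same array was the lowest for Hk2 (7.55), Pfkfb3 (7.53), Pfkl (8.57), Aldoc (6.62) and Tpi1 (12.94), and also for Gpi, Pfkp, Pfkfb1 and Eno1. It was the highest for Pfkm, Aldoa, Eno3, Ldha, Ldhb, Pdk1 and Pygm. Some margins were very small, as for Gpi (12.1736, next 12.1797) and Ldhb (14.2678, next 14.2658). How often this array was the lowest or highest over all genes was not counted.

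Tkt, transketolase of the pentose phosphate path, and Pygl, the liver phosphorylase, were highest on the 2 arrays with the most fat-gene signal. Tkt read 9.95, 10.32 and 10.82 in Dahl S and 10.17, 10.70 and 10.09 in congenic arrays. Pygl read 6.96, 7.58 and 8.16 in Dahl S and 7.39, 7.98 and 7.41 in congenic arrays. Their strain differences were -0.04 and 0.03.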
